A study of Mus musculus with 12 samples.

Results

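The actin cytoskeleton and its gene regulator, serum response factor (SRF), are described here through 36 named genes of 18193 measured. The members are the actin isoforms, the proteins that crosslink, coat, contract and anchor actin filaments, the filament turnover proteins Cfl1 and Pfn1, a group of LIM domain proteins, and Srf itself. A gene's value came from whichever of its probe sets was brightest on average across the 12 arrays, and all 36 were found. The list combines structural genes with genes reported elsewhere as SRF targets, so some members stand in it for their function and others for their regulation.

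The arrays measured TBV2 cells, a wild-type embryonic stem cell line of mouse strain 129/SvP. The proline group (PiCs) was given 500 µM L-proline for 5 days, and the control group (ESCs) had the same medium without it. Both groups were grown in leukemia inhibitory factor without added non-essential amino acids, plated sparsely on gelatin, with no feeder layer. A group comprised 2 biological replicates, each hybridised to 3 arrays. The labels do not say how the replicates were kept apart, and all of them come from 1 line. Arrays of a replicate were averaged, so each gene has 2 proline and 2 control values on the log2 scale. Where a group's values are listed, replicate 1 comes before replicate 2. The ± beside a fold change is the standard error moderated by limma, with n = 2 replicates a group. Pearson correlations between arrays were 0.996 to 0.998 within a replicate, 0.985 to 0.989 between replicates treated alike, and 0.962 to 0.981 between proline and control.

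Actin is a globular protein that assembles into filaments, and myosin II slides along them to give the cell tension. Crosslinkers and tropomyosins set the filament's architecture and stability, and focal adhesions tie it through integrins to the matrix outside. SRF is a transcription factor that binds a short DNA element called the CArG box. Actin monomers hold back the coactivators of the MRTF family; when filaments assemble and monomers grow scarce, these coactivators join SRF and drive many of the genes that build the cytoskeleton. Pluripotent stem cells hold an actin network beneath the membrane whose tension differs between naive and primed states.

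The DNA element that SRF binds was looked for in the promoters, because it is what the members described as SRF targets would share. RefSeq windows (GRCm38.p6) of 250 bases before to 50 bases after a gene's start site were found for 33 members, 39 windows in all; Actb, Actg2 and Tagln were not matched. The CArG box is a pair of Cs, a run of A or T, and a pair of Gs. The pattern reads alike on both strands, so 1 search covered both. An exact box was present in 12 windows of 11 members (30.77% of windows), against 535 of all 32851 windows (1.63%). With 1 base of the middle run allowed to differ, the counts were 16 member windows (41.03%) and 3280 of all windows (9.98%). Since members were listed partly as SRF targets, this share describes the list and is no finding about proline. The whole upstream stretch is shown for Srf, whose promoter held the only pair of exact boxes among the members, and for Actc1, which held 3 near matches beside its exact one. Capitals mark exact boxes, and every sequence reads 5′ to 3′ on the gene's strand.
Srf, chr17:46556163-46556412, minus strand: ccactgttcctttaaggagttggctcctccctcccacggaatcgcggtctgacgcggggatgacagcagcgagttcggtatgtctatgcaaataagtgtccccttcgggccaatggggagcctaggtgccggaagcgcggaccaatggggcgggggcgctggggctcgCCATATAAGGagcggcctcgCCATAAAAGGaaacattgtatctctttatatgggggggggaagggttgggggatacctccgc
Actc1, chr2:114052876-114053125, minus strand: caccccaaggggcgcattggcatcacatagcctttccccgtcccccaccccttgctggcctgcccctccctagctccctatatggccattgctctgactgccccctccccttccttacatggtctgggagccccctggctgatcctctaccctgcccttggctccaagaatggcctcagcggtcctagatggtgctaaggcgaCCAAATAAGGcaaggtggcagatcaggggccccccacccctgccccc

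For the other members, the box is shown with 20 bases on each side so that the central letters can be compared. The first base of the box lay between 31 and 227 bases before the start site in all of them. Fhl2 has an exact box in each of its 2 windows.
Acta1, chr8:123894819-123894868, minus strand: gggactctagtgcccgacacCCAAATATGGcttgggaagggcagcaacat
Actg1, chr11:120348556-120348605, minus strand: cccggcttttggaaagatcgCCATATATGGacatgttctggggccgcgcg
Cnn2, chr10:79988524-79988573, plus strand: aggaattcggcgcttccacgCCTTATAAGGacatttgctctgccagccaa
Myl9, chr2:156775283-156775332, plus strand: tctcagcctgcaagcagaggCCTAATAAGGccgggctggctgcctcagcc
Vcl, chr14:20929151-20929200, plus strand: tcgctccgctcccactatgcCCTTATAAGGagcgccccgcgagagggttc
Fhl1, chrX:56779561-56779610, plus strand: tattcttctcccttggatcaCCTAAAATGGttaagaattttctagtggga
Fhl2, chr1:43196828-43196877, minus strand: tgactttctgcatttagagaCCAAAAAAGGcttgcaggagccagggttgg
Fhl2, chr1:43163963-43164012, minus strand: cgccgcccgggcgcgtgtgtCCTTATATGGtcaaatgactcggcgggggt
Lima1, chr15:99820167-99820216, minus strand: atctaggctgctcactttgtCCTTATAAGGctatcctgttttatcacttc
Myl6, chr10:128493030-128493079, minus strand: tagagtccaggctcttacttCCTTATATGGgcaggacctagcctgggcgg
The palindromic core ccttataagg was shared by Cnn2, Vcl and Lima1. A box in these letters is a description of the sequence and not evidence that SRF bound it.

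Of the 36 genes, 2 rose after proline, the adhesion protein zyxin and the tropomyosin Tpm2, 0 fell, and 34 did not pass an adjusted p of 0.05 in limma. Over all genes, 3.03% passed in the higher and 1.34% in the lower direction. When any 1 of the 4 biological replicates was left out, 0 of 18193 genes passed in limma, with 2766 to 3676 at an unadjusted p under 0.05. Such a fit has 1 residual degree of freedom and takes the spread from the other group alone, so the lost calls do not show smaller differences. At an unadjusted p under 0.05 the members counted 14 higher and 0 lower, against 12.7% and 9.32% of all genes. Both proline replicates lay above both control replicates in 20 members (24.0% of all genes), and both lay below in 1, Cfl1 (28.7% of all genes). All 6 proline arrays lay above all 6 control arrays in 19 members (13.8% of all genes). Proline means were at least 2-fold above control means in 11 members (4.66% of all genes) and at least 2-fold below in 0 (2.26%). The members' median log2 fold change was 0.35, with 29 above 0, and that of all genes was -0.03, with 43.9% above 0. Whether more or fewer cells expressed a gene, or each cell held more or less of its RNA, cannot be told apart in such bulk samples.

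**Figure D1:**
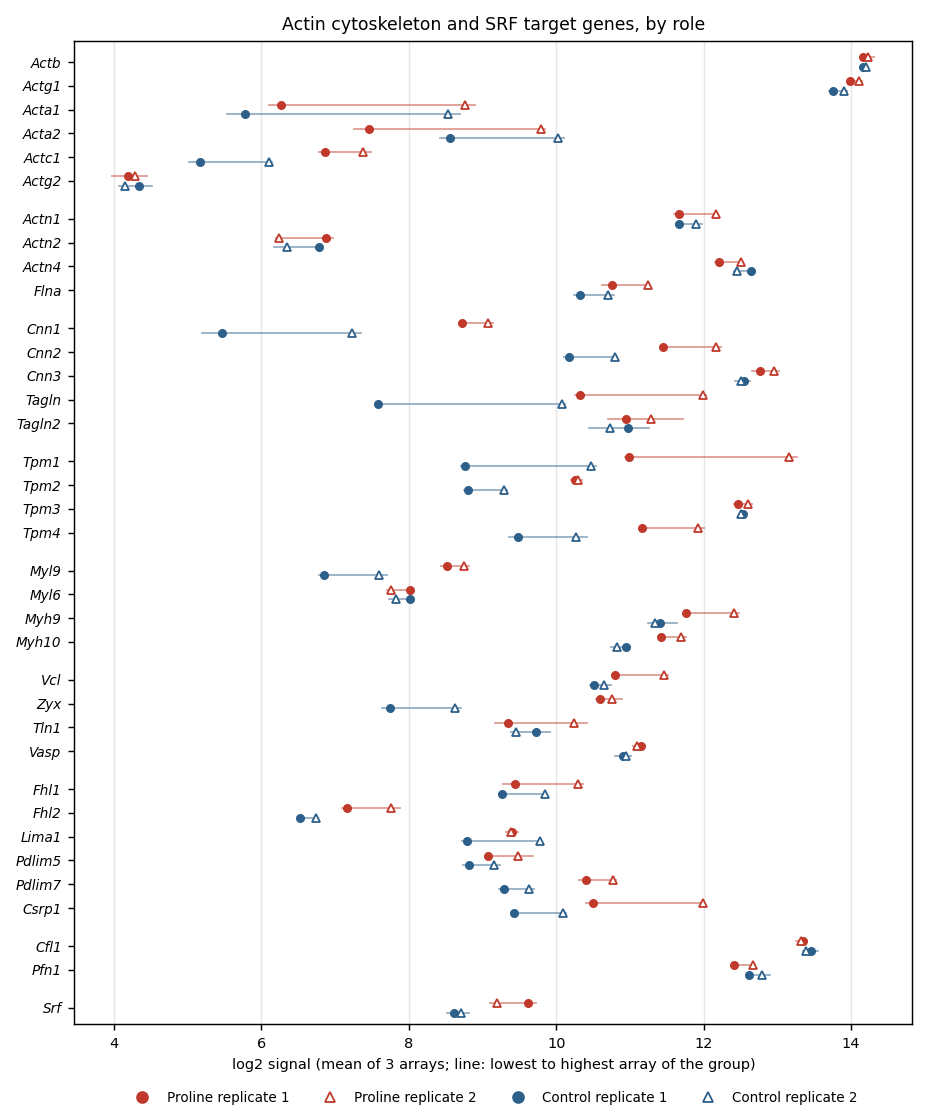
Log2 signal of the 36 genes, grouped by role from actin isoforms at the top to Srf at the bottom, with proline in red above control in blue. Circles and triangles are biological replicates 1 and 2 (means of 3 arrays), and lines run from the lowest to the highest array of the group; Zyx and Tpm2 show separated groups, while Acta1 and Acta2 are split by replicate number. Positions of different genes are not comparable, since each probe set has its own response.

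The replicates of each group are not equivalent for these genes. Replicate 2 exceeded replicate 1 in 30 of 36 members after proline (44.9% of all genes) and in 25 of 36 in control (47.0% of all genes). The members' median difference was 0.35 between the proline replicates and 0.22 between the control replicates. In the 4 possible proline minus control differences, the members' median was 0.32 for proline 1 minus control 1 and 0.21 for proline 1 minus control 2. It was 0.84 for proline 2 minus control 1 and 0.52 for proline 2 minus control 2. All 4 medians were above 0, and those with proline replicate 2 were the larger ones. The proline replicates of Acta1, Acta2, Tagln, Tpm1 and Csrp1 lay over 1 log2 unit apart, 5 of 36 members (2.01% of all genes). The group difference exceeded both replicate differences in 18 members (39.9% of all genes). Without proline replicate 2 the median was 0.23, and without proline replicate 1 it was 0.70.

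Array control signals, which bear on RNA integrity and labelling, differed by replicate number, and some of them by treatment. The array's own control probe sets for beta-actin gave a 5′ minus 3′ signal of -0.660 and -0.235 (log2) after proline and -0.898 and -0.497 in control. The corresponding values for Gapdh were -0.363 and -0.106 after proline, against -0.441 and -0.152 in control. For both genes the groups overlapped, with proline replicate 1 below control replicate 2. Between replicates of the same number, proline was the less negative. Ribosomal 18S RNA probe sets read 9.74 and 8.35 after proline and 10.74 and 10.04 in control, a difference of -1.35 with both proline replicates below both controls. Poly-A spike-in probe sets read 8.65 and 8.12 after proline and 9.02 and 8.63 in control, a difference of -0.439 in which proline replicate 1 lay just above control replicate 2. The part of these differences in the members' values was not tested.

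**Figure D2:**
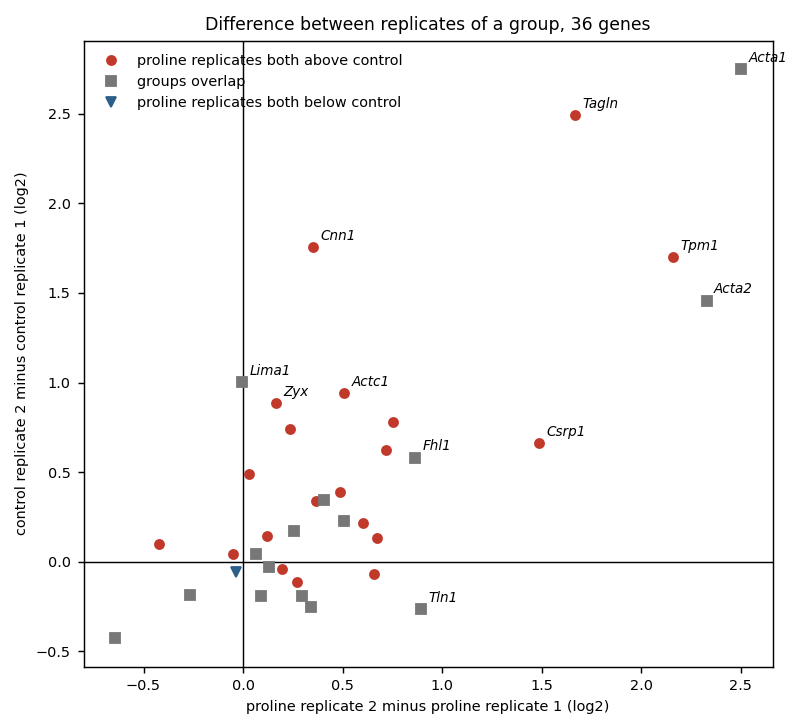
Difference between replicate 2 and replicate 1 (log2) of the 36 genes, proline on the horizontal and control on the vertical axis. Acta1, Tagln, Tpm1 and Acta2 lie far to the upper right, where replicate 2 exceeded replicate 1 in both groups; 22 of 36 genes are in that quadrant, against 24.9% of all genes.

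Among focal adhesion proteins, zyxin had the lowest p of the list. Zyx, a LIM protein that moves to stretched actin fibres and recruits Vasp, read 10.59 and 10.76 in the proline replicates, against 7.75 and 8.63 in the control replicates. The groups did not overlap, and its control replicates were further apart than its proline replicates. The log2 fold change was 2.48 ± 0.32 (moderated SE), a 5.6-fold increase (adjusted p = 0.0363, limma). The second Zyx probe set separated the groups in the same direction, with a log2 fold change of 0.63. Leaving out any 1 biological replicate raised the adjusted p of Zyx to between 0.0519 and 0.119, with log2 fold changes from 2.04 to 2.93. Testing every probe set by itself gave an adjusted p of 0.0670.

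The other focal adhesion members showed smaller values. Vinculin (Vcl), which links talin to actin under tension, read 10.80 and 11.47 in the proline replicates, against 10.52 and 10.65 in the control replicates, or 0.55 ± 0.25 (adjusted p = 0.304). Vasp, which speeds filament elongation, read 11.15 and 11.10 after proline and 10.91 and 10.95 in control; the groups were apart by little, 0.19 ± 0.11 (adjusted p = 0.407). Talin (Tln1), which connects integrins to actin, had overlapping groups with 9.34 and 10.24 after proline and 9.72 and 9.45 in control. A dimmer Tln1 probe set, not used for the gene, measured 1.19 with the groups apart, and the third measured -0.17, so the probe sets of this gene disagree. Proline replicate 2 held the highest value for both Vcl and Tln1.

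Tropomyosins, which wrap along the filament and decide which partners bind it, showed 1 increase and 3 genes that did not pass. Tpm2 read 10.26 and 10.29 in the proline replicates, against 8.80 and 9.29 in the control replicates, with proline replicates nearly equal. It rose 2.35-fold (1.23 ± 0.19, adjusted p = 0.0479), and its 4 probe sets all separated the groups, at 0.47 to 1.50. The call was lost with quantile normalization (adjusted p = 0.0582), with the median over probe sets (0.0641), with every probe set by itself (0.0828), without control array 2a (0.0522), and without any 1 biological replicate (0.0611 to 0.145).

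Tpm1 had a similar separation of groups but a wide spread within them. Its signals were 10.99 and 13.16 in the proline replicates, against 8.77 and 10.47 in the control replicates, so the replicates of a group differed by 2.16 after proline and 1.70 in control. The log2 fold change of 2.46 ± 0.91 did not pass (adjusted p = 0.219), although all 4 of its probe sets separated the groups. Without proline replicate 2 it measured 1.38. Tpm4, another broadly expressed tropomyosin, read 11.17 and 11.92 in the proline replicates, against 9.49 and 10.27 in the control replicates. Its difference was 1.67 ± 0.37 (adjusted p = 0.0897), again with both proline replicates higher. Tpm3, which is expressed in most cells, read 12.46 and 12.60 after proline and 12.54 and 12.51 in control and did not separate the groups (0.00 ± 0.12).

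Calponins and transgelins bind the side of actin filaments, and Cnn1 and Tagln are used as markers of smooth muscle. None of the 5 passed, although 4 had both proline replicates above both controls (24.0% of all genes). Cnn1 had the largest measured fold of the list, with 8.72 and 9.07 in the proline replicates, against 5.47 and 7.22 in the control replicates. The control replicates lay far apart, and the log2 fold change of 2.55 ± 0.60 had an adjusted p = 0.0992. Tagln, also called SM22 alpha, read 10.32 and 11.99 in the proline replicates, against 7.58 and 10.07 in the control replicates. Proline replicate 1 lay only slightly above control replicate 2, and the log2 fold change was 2.33 ± 0.99 (adjusted p = 0.274).

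The broadly expressed calponins gave tighter values. Cnn2 read 11.44 and 12.16 in the proline replicates, against 10.17 and 10.79 in the control replicates, 2.5-fold at 1.32 ± 0.33 (adjusted p = 0.111). Cnn3 read 12.76 and 12.96 after proline and 12.55 and 12.51 in control, a difference of 0.33 ± 0.13 (adjusted p = 0.232, limma). Of its 6 probe sets, 5 separated the groups, and these 5 carry a suffix for probes that may also bind other transcripts. The probe set without that suffix measured 0.56, and its groups overlapped, with proline replicate 1 at 11.536 and control replicate 2 at 11.54. Tagln2 overlapped between groups, with 10.94 and 11.29 after proline and 10.97 and 10.72 in control, and its arrays within a replicate spread by up to 0.81, more than those of any other member.

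The actin isoforms themselves differed in pattern. The cytoplasmic isoforms, which make up most actin of non-muscle cells, were nearly flat. Actb read 14.16 and 14.23 in the proline replicates, against 14.16 and 14.20 in the control replicates, a difference of 0.02 ± 0.11, close to the highest signal in the table (14.8). A second Actb probe set measured -0.36, and the array's control probe sets for Actb measured 0.04 at the 3′ end, 0.15 in the middle and 0.29 at the 5′ end. Actg1 read 13.99 and 14.11 after proline and 13.76 and 13.91 in control, with groups apart by 0.22 ± 0.13 (adjusted p = 0.415). The probe sets used for Actg1, Acta2 and, outside the actins, Lima1 carry the suffix that marks probes shared between transcripts, so their signals may be mixed. Those used for Cnn3, Tagln2 and Cfl1 carry the suffix for probes that may also bind other transcripts, so the same limit holds for them.

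Among muscle isoforms, Actc1 of the heart was the one with separated groups. It read 6.87 and 7.37 in the proline replicates, against 5.16 and 6.10 in the control replicates, with a measured 2.8-fold difference at 1.49 ± 0.37 (adjusted p = 0.109). Skeletal Acta1 read 6.27 and 8.77 in the proline replicates, against 5.78 and 8.53 in the control replicates. Smooth muscle Acta2 read 7.46 and 9.79 in the proline replicates, against 8.56 and 10.02 in the control replicates. In both genes the values were ordered by replicate number: replicate 2 was higher by 2.50 and 2.75 for Acta1 and by 2.33 and 1.46 for Acta2 in proline and control. Their group differences of 0.36 ± 1.23 and -0.67 ± 0.91 changed sign when single replicates were left out, from -1.01 to 1.74 for Acta1 and from -1.83 to 0.50 for Acta2. Actg2, the isoform of gut smooth muscle, lay between 4.15 and 4.34 in all replicates, under the 40th percentile of probe set means (5.36).

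Of the myosin II subunits 0 passed the test. Both heavy chains and 1 light chain had both proline replicates above both controls (24.0% of all genes). Myl9, a regulatory light chain whose phosphorylation switches the motor on, read 8.52 and 8.76 in the proline replicates, against 6.85 and 7.59 in the control replicates. That is a measured 2.67-fold difference, 1.42 ± 0.28 (adjusted p = 0.0712). The non-muscle heavy chain Myh10 read 11.42 and 11.69 after proline and 10.94 and 10.83 in control, with groups apart by 0.67 ± 0.15 (adjusted p = 0.0867). Myh9 read 11.76 and 12.41 after proline and 11.40 and 11.33 in control, or 0.72 ± 0.24 (adjusted p = 0.19), and all 5 of its probe sets separated the groups. The essential light chain Myl6 read 8.02 and 7.75 after proline and 8.02 and 7.83 in control and its groups overlapped (-0.04 ± 0.15).

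Crosslinkers mostly overlapped between groups. Filamin A (Flna), which joins filaments into networks, was the exception, with 10.76 and 11.25 in the proline replicates, against 10.32 and 10.71 in the control replicates and a difference of 0.49 ± 0.23 (adjusted p = 0.316). The non-muscle alpha-actinins bundle filaments, and Actn1 read 11.66 and 12.17 after proline and 11.66 and 11.89 in control (0.14 ± 0.21). Actn4 read 12.21 and 12.50 after proline and 12.65 and 12.45 in control (-0.19 ± 0.16), with proline replicate 1 the lowest of the 4 values. Actn2 of striated muscle read 6.88 and 6.23 after proline and 6.78 and 6.35 in control, with replicate 1 above replicate 2 in both groups.

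**Figure D3:**
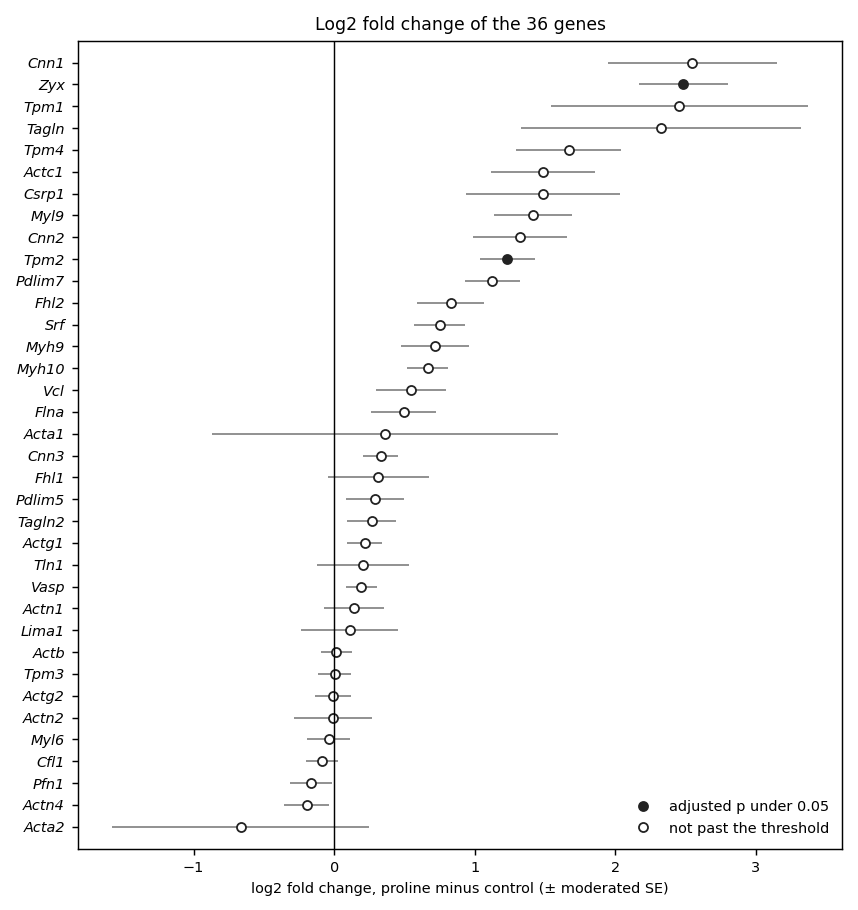
Log2 fold change (proline minus control) of the 36 genes with limma's moderated standard error, ordered by size. Filled circles mark Zyx and Tpm2, the genes past an adjusted p of 0.05; Cnn1, Tpm1 and Tagln have folds of similar size to Zyx with wider errors.

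LIM domain proteins carry zinc-finger modules that dock onto the cytoskeleton. All 6 had a log2 fold change above 0 (43.9% of all genes) without passing. Pdlim7, also called Enigma, came nearest with 10.40 and 10.77 in the proline replicates, against 9.29 and 9.62 in the control replicates. Its difference of 1.13 ± 0.20 (2.18-fold) had an adjusted p = 0.0575, and passed in alternatives such as leaving out dim genes (0.0446) or fitting an intensity trend (0.0468). Its 3 probe sets all separated the groups, at 0.21, 1.13 and 1.70. Fhl2, a cofactor that is itself an SRF target, read 7.16 and 7.76 in the proline replicates, against 6.53 and 6.74 in the control replicates, or 0.83 ± 0.24 (adjusted p = 0.14).

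Csrp1, which binds alpha-actinin and zyxin, read 10.50 and 11.99 in the proline replicates, against 9.43 and 10.09 in the control replicates. Proline replicate 2 stood above the other 3 values by 1.49 or more, and the difference of 1.48 ± 0.55 (adjusted p = 0.217) was 0.74 without it. Fhl1 read 9.43 and 10.30 after proline and 9.26 and 9.84 in control, Pdlim5 read 9.07 and 9.48 after proline and 8.81 and 9.16 in control, and Lima1, which slows filament turnover, read 9.39 and 9.39 after proline and 8.78 and 9.78 in control. These groups overlapped, with differences of 0.31 ± 0.36, 0.29 ± 0.21 and 0.11 ± 0.35. In Lima1 the control replicates enclosed both proline values.

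Filament turnover genes gave no call. Cofilin (Cfl1), which severs filaments, read 13.35 and 13.32 in the proline replicates, against 13.45 and 13.39 in the control replicates, a separation of groups by only -0.09 ± 0.11 (adjusted p = 0.744). Its second probe set overlapped between groups, with a difference of -0.002. Profilin (Pfn1), which feeds monomers to growing ends, read 12.42 and 12.67 after proline and 12.62 and 12.79 in control (-0.16 ± 0.15, adjusted p = 0.623).

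Srf itself read 9.62 and 9.20 in the proline replicates, against 8.61 and 8.71 in the control replicates. Proline replicate 2 was below proline replicate 1 in this probe set and above it in the other, which read 9.26 and 9.39 after proline and 8.45 and 8.50 in control. The groups did not overlap in either probe set. The measured difference was 0.75 ± 0.18, 1.68-fold (adjusted p = 0.102), and 0.85 for the other probe set. The members with an exact CArG box in the window had a median log2 fold change of 0.55. Of them, 7 of 11 were separated upward (24.0% of all genes). The members matched without one had a median of 0.31, with 12 of 22 separated upward, and both genes that passed the test were among these 22. The difference was not tested.

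**Figure D4:**
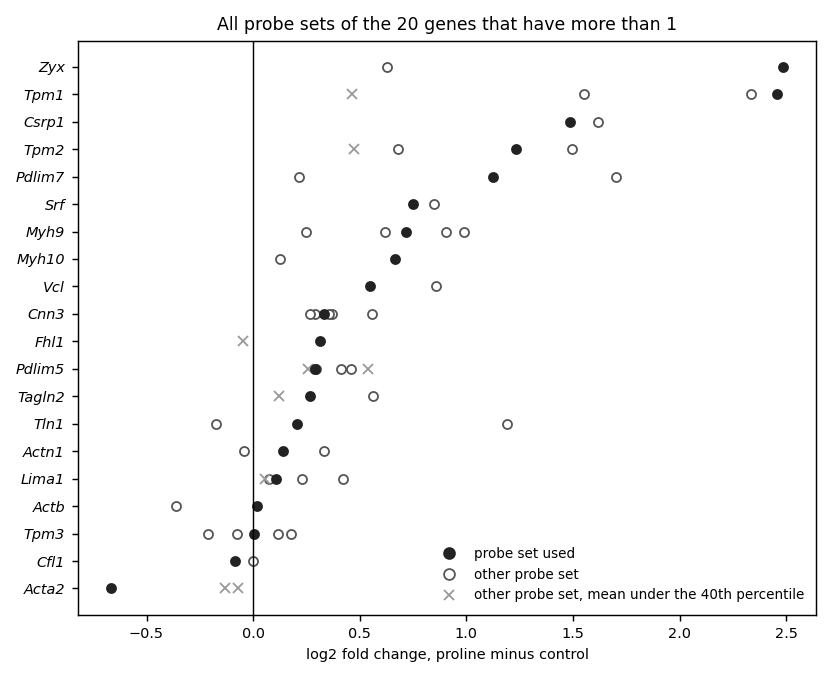
Log2 fold change (proline minus control) of every probe set of the 20 genes that have more than 1, with the one used filled and those with a mean under the 40th percentile as crosses. All probe sets of Zyx, Tpm1, Tpm2, Pdlim7, Myh9 and Srf lie above 0, while those of Tln1, Actn1 and Tpm3 lie on both sides.

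The partners of these proteins were read from lists that do not contain the members. The SRF cofactors held 0 genes past the threshold among 7 measured, and 0 at an unadjusted p under 0.05. Myocd, the muscle coactivator, read 4.88 and 4.70 after proline and 4.42 and 4.59 in control (0.29 ± 0.14), under the 40th percentile. Elk1, a cofactor of the growth factor response, measured -0.24 ± 0.15. Genes reported elsewhere as SRF targets beyond the 36 held 2 that rose, 0 that fell and 18 that did not pass, with a median log2 fold change of 0.12. Over all genes, 3.03% rose and 1.34% fell. These targets counted 4 higher and 0 lower at an unadjusted p under 0.05 in limma (12.7% and 9.32% of all genes). Both proline replicates lay above both controls in 8 of them and below both in 1 (24.0% and 28.7% of all genes). The matricellular gene Ccn1 read 10.19 and 11.12 in the proline replicates, against 6.99 and 8.03 in the control replicates (3.15 ± 0.47, adjusted p = 0.0442). The AP-1 gene Junb read 9.03 and 9.08 after proline and 8.30 and 8.22 in control (0.80 ± 0.11, adjusted p = 0.0413).

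Proteins that start new filaments included 3 that rose, 1 that fell and 12 that did not pass (3.03% of all genes rose and 1.34% fell). This list counted 5 higher and 1 lower at an unadjusted p under 0.05 in limma (12.7% and 9.32% of all genes). The formins Diaph2 (2.19 ± 0.28, adjusted p = 0.0363) and Fmnl2 (0.996 ± 0.15, adjusted p = 0.044) and the nucleator Spire1 (1.20 ± 0.17, adjusted p = 0.0405) rose. Cobl, another nucleator, fell to 8.48 and 8.51 in the proline replicates, against 10.85 and 10.65 in control (-2.26 ± 0.13, adjusted p = 0.0245).

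Of 24 other focal adhesion genes measured, Pdlim2 rose (2.19 ± 0.28, adjusted p = 0.0365) and 23 did not pass, while 12 were higher and 3 lower at an unadjusted p under 0.05 (12.7% and 9.32% of all genes). The median was 0.75. Of these genes, 13 had both proline replicates above both controls and 5 had both below (24.0% and 28.7% of all genes). Among bundling and membrane linker genes, Marcks, which crosslinks actin at the membrane, rose (1.58 ± 0.14, adjusted p = 0.026, limma) and 19 of 20 did not pass. This list counted 5 higher and 3 lower at an unadjusted p under 0.05 (12.7% and 9.32% of all genes). Monomer binding, severing and capping genes held 0 of 20 past the threshold in limma. At an unadjusted p under 0.05, 5 were higher and 1 lower (12.7% and 9.32% of all genes). Coro1b (0.71 ± 0.12) and Pfn2 (0.81 ± 0.16) had the smallest p of them. Other myosin II genes held 0 of 13, with 0 at an unadjusted p under 0.05; Myh14 measured -0.28 ± 0.14 and Myl12a 0.36 ± 0.20. The calls in these lists depended on how probe sets were used. With the median over probe sets, 1 nucleation gene, 0 focal adhesion genes, 1 bundling or linker gene and 1 further SRF target passed as higher, and 1 nucleation gene passed as lower. With every probe set tested by itself, 0 genes of these lists passed as higher in limma and 1 nucleation gene passed as lower.

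**Figure D5:**
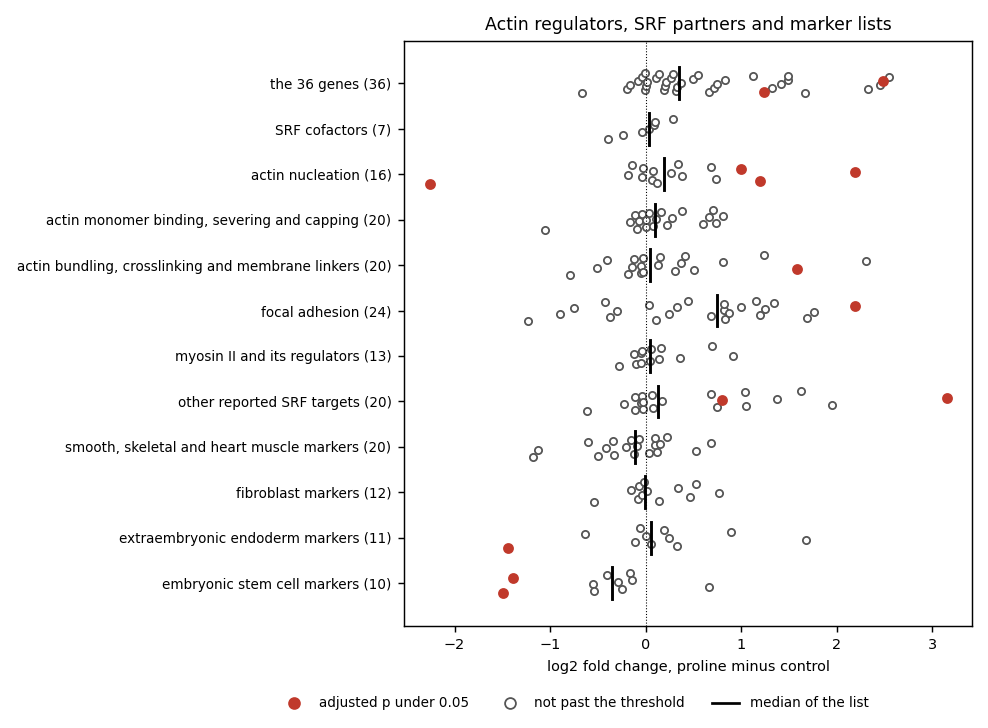
Log2 fold change (proline minus control) of the 36 genes, of lists of actin regulators and SRF partners, and of 4 marker lists, with the number of genes measured in brackets and the median as a bar. Red points passed an adjusted p of 0.05; the medians of the 36 genes (0.35) and of other focal adhesion genes (0.75) lie above 0, and that of muscle markers (-0.11) below.

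Several members mark smooth muscle, so markers of other cell types were read beside them. Smooth, skeletal and heart muscle markers held 0 of 20 genes past the threshold in limma. At an unadjusted p under 0.05, 2 were higher and 3 lower (12.7% and 9.32% of all genes). In both groups 10 of the 20 lay under the 40th percentile, among them Myh11, the myosin of smooth muscle, at 4.53 and 4.40 after proline and 4.72 and 4.64 in control, and Myod1 and Myog of skeletal muscle. Both proline replicates lay above both controls in 4 of the 20 and below both in 10 (24.0% and 28.7% of all genes). Brighter markers lay on both sides. The intermediate filament gene Des read 8.58 and 8.83 after proline and 8.39 and 7.98 in control (0.52 ± 0.19, adjusted p = 0.213). The smooth muscle gene Smtn read 8.33 and 8.91 after proline and 7.76 and 8.12 in control (0.68 ± 0.25, adjusted p = 0.217), and in both genes all proline arrays lay above all control arrays. The atrial light chain Myl7 (-1.18 ± 0.50) and the heart myosin gene Myh6 (-0.60 ± 0.17) had all proline arrays below all control arrays. So did the amine oxidase gene Aoc3 (-1.12 ± 0.25), which is not among the brighter markers. Its group means, 4.11 after proline and 5.24 in control, lay under the 40th percentile. The log2 of the summed signal of the 20 muscle markers was 10.53 and 10.72 after proline and 10.73 and 10.45 in control. Such a sum, here and for the lists below, is weighted to the brightest probe sets and is not a measure of cell number. Fibroblast markers held 0 of 12, with 2 higher and 0 lower at an unadjusted p under 0.05 (12.7% and 9.32% of all genes). In both groups 5 of 12 lay under the 40th percentile. The median difference of replicate 2 minus replicate 1 over the fibroblast markers was 0.29 after proline and -0.138 in control. For the 36 members these medians were 0.35 and 0.22. The log2 of the fibroblast markers' summed signal was 10.45 and 10.8 after proline and 10.56 and 10.39 in control. The extraembryonic endoderm markers held 1 that fell, the laminin gene Lama1 (-1.45 ± 0.22), and 10 that did not pass. At an unadjusted p under 0.05 this list counted 2 higher and 2 lower (12.7% and 9.32% of all genes). Dab2, an endocytic adaptor, read 8.56 and 8.99 after proline and 6.76 and 7.43 in control (1.68 ± 0.28, adjusted p = 0.0545), and Amn, a partner of endocytic receptors, had all proline arrays above all control arrays (0.89 ± 0.16, adjusted p = 0.0582); 1 gene of this list passed as higher when dim genes were left out or an intensity trend was fitted. The log2 summed signal of the list was 9.99 and 10.21 after proline and 9.833 and 10.05 in control. All 10 embryonic stem cell markers had group means above the 40th percentile in proline and in control, with Pou5f1 at 13.44 and 12.87 after proline and 13.56 and 13.32 in control. Among them, Esrrb (-1.49 ± 0.13) and Zfp42 (-1.39 ± 0.14) fell and 8 did not pass. At an unadjusted p under 0.05, 1 was higher and 4 lower (12.7% and 9.32% of all genes). The higher one, Lin28a, had all proline arrays above all control arrays (0.67 ± 0.11, adjusted p = 0.0530 in limma). With every probe set tested by itself, 0 genes of the 4 marker lists passed in limma. The log2 summed signal of the 10 stem cell markers was 15.46 and 15.36 after proline and 15.81 and 15.79 in control. The part of other cell types in the members' values was not tested beyond these levels.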

How the data were processed

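Transcripts were measured on 12 arrays of TBV2 cells, with 3 arrays for each of 2 biological replicates per group. Log2 signals for 45101 probe sets were deposited as 1 table, already normalized by the authors. MAS5 and RMA are named, per the submitters' processing notes, without saying which made the table. Values ran from 2.10 to 14.8 and array medians from 5.98 to 6.03. Detection calls were not used here, so low signal is not separated from background, and the number of replicates limits the precision.

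Gene symbols came from the annotation of the array platform, checked by gene ID against RefSeq (GRCm38.p6). Of these, 34945 had 1 symbol, 932 had several and were not named, and the 64 array controls were left out. The probe set with the highest mean represented each of 18193 genes. The 4 replicate means entered limma 3.58.1 under R 4.3.3 (a 2-group lmFit with eBayes, no covariate, two-sided, 2 residual and 2.60 prior degrees of freedom), and p-values were adjusted by Benjamini-Hochberg over all genes. The fit was tested on simulated data. With 2 values a group, the smallest exact permutation p is 0.333, so every p rests on the model, and measures only the spread between these replicates, which may be technical.

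The members and lists were chosen with earlier results of these data known, and support no independent claim. All members are named; of each list, genes past the threshold, at most 4 by smallest p, or else the 2 with the smallest p. A few listed genes had no single-symbol probe set and are not analysed here. One further list is not reported here. The settings varied were normalization (quantile, or centring on array medians), the filter on dim genes, other uses of probe sets, the 12 arrays as units, a replicate block, an intensity trend, and the omission of each replicate or array. Plots were drawn with matplotlib 3.10.9.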

Additional observations from a re-analysis of the deposited data

Results flagged for a closer look

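Over the 6 arrays of each group, 72 sets of values of the 36 genes were searched for a single array far from the rest, and 3 were found. The rule's chance rate of about 1 in 20 sets assumes independent values. The 6 arrays of a group are 3 arrays of each of 2 replicates, so that rate is not a yardstick here. Actb read 14.32 in proline array 2c, against 14.16 to 14.20 in the other 5 proline arrays. Myh9 read 11.64 in control array 1c, against 11.25 to 11.36 in the other control arrays. Tpm3 read 12.48 in control array 2c, against 12.53 to 12.54 in the others. Each of these gaps is small beside the differences between replicates of Tpm1 or Tagln.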

How the results depend on the processing

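With quantile normalization or with the median over probe sets, 1 member (Zyx) passed, and with every probe set tested by itself 0 did in limma (12 at an unadjusted p under 0.05). Over all features, 351 genes passed when probe sets were summarised by their median, and 45 when each was tested alone. Taking the 12 arrays in a random block gave 17 members and 3987 genes, and taking them as independent gave 20 and 6804. The replicate block (control 1 with proline 1, control 2 with proline 2) gave 12 members and 2039 genes. The labels do not say that a number marks a shared culture or day. Across genes, the replicate differences of the proline and control groups correlated at r = 0.338, and there are only 2 pairs, so the block is not used as the result. Leaving out 1 biological replicate left 0 members and 0 genes past the threshold in limma, with 9 to 18 members and 2766 to 3676 genes at an unadjusted p under 0.05; leaving out 1 array left 1 to 2 members and 732 to 844 genes. The members' median ran from 0.23 to 0.70 over these omissions. No member passed in the lower direction under any alternative run.

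Some members changed sign, including Acta2 and Acta1, whose differences were not near 0. Actg2 measured 0.0193 with quantile normalization, and Actb -0.17 and Actn1 -0.0413 with the median over probe sets. When a replicate or an array was left out, the ranges were -0.0162 to 0.0482 for Actb, -1.01 to 1.74 for Acta1, -1.83 to 0.50 for Acta2, -0.104 to 0.0888 for Actg2, -0.11 to 0.39 for Actn1, -0.33 to 0.31 for Actn2, -0.0617 to 0.0695 for Tpm3, -0.17 to 0.10 for Myl6, -0.39 to 0.61 for Lima1, -0.12 to 0.75 for Fhl1 and -0.24 to 0.65 for Tln1. The cause was not tested. Signal under the 40th percentile limits Actg2.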

Other observations

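Relatives of the members within the focal adhesion list were looked at after their values were seen. The PDZ-LIM family of Pdlim5 and Pdlim7 has 4 further genes in that list, and Pdlim2, Pdlim3 and Pdlim4 each had both proline replicates above both controls. Pdlim3 read 7.23 and 8.24 after proline and 5.91 and 6.18 in control (1.69 ± 0.36, adjusted p = 0.0823), and Pdlim4 read 8.08 and 8.10 after proline and 6.52 and 7.27 in control (1.19 ± 0.27, adjusted p = 0.0918). Pdlim1 overlapped between groups (0.24 ± 0.18). The parvins, which bind integrin-linked kinase, measured in opposite directions: Parva 1.76 ± 0.58 (adjusted p = 0.18) and Parvb -1.24 ± 0.27 (adjusted p = 0.0848). The tensins Tns1 (-0.89 ± 0.28) and Tns3 (-0.75 ± 0.18) both had proline replicates below control. Apart from Pdlim2, none of these passed the test.

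Thbs1, a matrix glycoprotein reported as an SRF target, read 6.69 and 9.97 in the proline replicates, against 5.83 and 7.57 in the control replicates, so that its replicates differed in the same order as those of Tagln and Tpm1. Fosb read 6.01 in proline replicate 1, and its other 3 values lay under the 40th percentile of probe set means.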
